A study of Mus musculus with 8 samples.

Results

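The genes described here are 34 genes of the ATF4 stress response and of amino acid supply, chosen by gene symbol from the 18768 genes in the deposited count table. All 34 were in the table, and 33 passed edgeR's filter on low counts, which kept 15153 genes in all. They comprise 11 regulators, 8 enzymes of amino acid synthesis and one-carbon metabolism, 6 amino acid transporters, 5 tRNA synthetases, and 4 genes for secreted factors and a receptor.

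ATF4 is a transcription factor whose mRNA is translated better when the initiation factor eIF2 is phosphorylated, as happens when a cell lacks amino acids or heme, holds double-stranded RNA or has unfolded protein in its endoplasmic reticulum. It binds DNA with C/EBP partners and raises genes that make, import and charge amino acids, together with feedback inhibitors of the same pathway. In fibroblasts and tumor cells the same genes are transcribed at a basal level in culture, and the cell can itself make serine, glycine and asparagine. Because ATF4 is controlled mainly at translation, the level of its mRNA is not a measure of its protein.

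RNA was sequenced from 4 stable mouse fibrosarcoma lines, each grown from a tumor induced by subcutaneous methylcholanthrene (MCA) in peanut oil. The label IRF8 KO belongs to MC010 and MC011, from IRF8 knock-out mice, and the label WT to MC654 and MC659, from C57BL/6 wild-type mice by the study's text. Each line gave 2 libraries, so 4 libraries of each label stand for 2 tumors, and genotype and tumor cannot be told apart beyond that. All lines were cultured in the same RPMI medium with serum and antibiotics, with no further treatment stated for these libraries. The ages of the mice are not given in the sources used here, and nothing in the labels says that the libraries of a line came from separate cultures, so p-values between lines measure a spread that may be technical.

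The libraries held from 74063616 to 116206078 counts. The targeted gene itself, Irf8, reached 442 and 347 counts for MC010, 32 and 10 for MC011, and 0 to 2 in the WT libraries; its RNA is thus higher under the KO label, the counts do not tell which exons were read, and groups are called by their labels below. Of 8 mesenchymal markers, all were in the table, and their summed level was 9509 to 10451 CPM (counts over the TMM-scaled library size) in the libraries labelled KO and 14401 to 16146 CPM in those labelled WT. Fn1 was the 1 mesenchymal marker called lower, with 1142 to 2112 CPM under the KO label and 7779 to 8132 CPM under the WT label. Without it the sums overlapped, at 7578 to 9287 CPM under KO and 6622 to 8049 CPM under WT. Col1a2 was also lower in every KO library, at 238 to 802 against 876 to 1270.3 CPM (edgeR, adjusted p = 0.082). Vim was above WT in every KO library, at 5240.4 to 7384 against 4532 to 4900.4 CPM, and Thy1 (1.93) and S100a4 (2.17) were called higher on the log2 scale. Hematopoietic markers, of which 4 of 10 were in the table, summed to 5.72 to 7.38 CPM under KO and 9.67 to 11.4 CPM under WT. Ptprc had 18 and 13 counts in MC010, 0 in both MC011 libraries and 1 to 2 in the WT libraries. Cd79a had 10 to 17 counts under KO and 2 to 6 under WT, and neither gene passed the filter. Csf1r was called lower under the KO label (log2 fold change −1.93, edgeR, adjusted p = 0.0020). Epithelial (3 of 5 in the table), endothelial (4 of 5) and skeletal muscle (3 of 5) markers each summed to at most 2.80 CPM in any library. Myod1, a regulator of muscle fate, had 281 and 204 counts (2.46 and 2.78 CPM) in MC010, the lowest line for most of the module, 0 in MC011 and 3 to 12 in the WT libraries, and its part in the module was not tested. Epcam (2.20) and Tek (2.37) were called higher under the KO label on the log2 scale, at up to 1.19 and 0.405 CPM. No other epithelial or endothelial marker was called by label. Krt14 had 73 and 81 counts in MC011 and was at 0 in a library each of MC010 and MC654. Cdh1 was at 0 in a library of MC010 and Kdr at 0 in a library of MC659. Fn1 and the sum that it sets moved with the module genes below, and their part in them was not tested. In bulk RNA, fewer cells of a type and less RNA per cell cannot be told apart.

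The element through which ATF4 and its C/EBP partners are known to act has the core TGATGNAA (its reverse complement is TTNCATCA). It was the 1 motif searched, on both strands, in RefSeq windows from 250 bases before to 50 bases after each transcript start (build GRCm38.p6). Of the 34 members, 28 were matched to a window. The core was in a window of 11 of these 28 genes (39.3%), against 1219 of the 27025 genes in the whole promoter table (4.51%). Counted by window, it was in 11 of 35 windows of the members (31.4%) and in 3.97% of all 32851 windows. A match is a description of the letters and not of binding, and its absence says only that these letters are not in this window. The members were chosen as genes of the ATF4 response, so their share is no independent test of ATF4 action. Eif4ebp1, Aldh1l2, Slc7a5, Slc1a5, Nars and Wars had no window in the table.

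The stretches below show the core, in capitals, in 9 of the 11 members that hold it. In each of these 9 its first base lies before the start. Each is 30 bases long, written 5′ to 3′ on the strand of the gene.
Atf3, chr1:191183425-191183454, minus strand: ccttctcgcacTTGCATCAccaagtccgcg
Nupr1, chr7:126625562-126625591, minus strand: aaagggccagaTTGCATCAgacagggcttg
Chac1, chr2:119351038-119351067, plus strand: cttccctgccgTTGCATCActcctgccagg
Asns, chr6:7693214-7693243, minus strand: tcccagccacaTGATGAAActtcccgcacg
Pck2, chr14:55540152-55540181, plus strand: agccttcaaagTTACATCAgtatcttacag
Slc1a4, chr11:20332699-20332728, minus strand: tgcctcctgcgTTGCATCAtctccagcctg
Gars, chr6:55037960-55037989, plus strand: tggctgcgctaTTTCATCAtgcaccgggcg
Fgf21, chr7:45615611-45615640, minus strand: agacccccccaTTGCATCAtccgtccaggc
Vldlr, chr19:27216809-27216838, plus strand: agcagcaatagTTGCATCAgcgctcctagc

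In 8 of these 9 stretches the core lies on the strand opposite to the gene, and only that of Asns reads in the gene's direction. The letters TTGCATCA were found in 6 of the 9 genes, while Asns (TGATGAAA), Pck2 (TTACATCA) and Gars (TTTCATCA) have their own. The first base of the core lies 110 bases before the start in Atf3 and Nupr1, 193 in Chac1, 23 in Asns, 103 in Pck2, 4 in Slc1a4, 30 in Gars, 139 in Fgf21 and 200 in Vldlr, in the window of another Vldlr start in the last case. The core of Slc1a4 thus runs across the start. In Asns the GENCODE annotation has a start further upstream, so the core is inside its first exon. Trib3 holds the core 14 bases after the start.

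**Figure D1:**
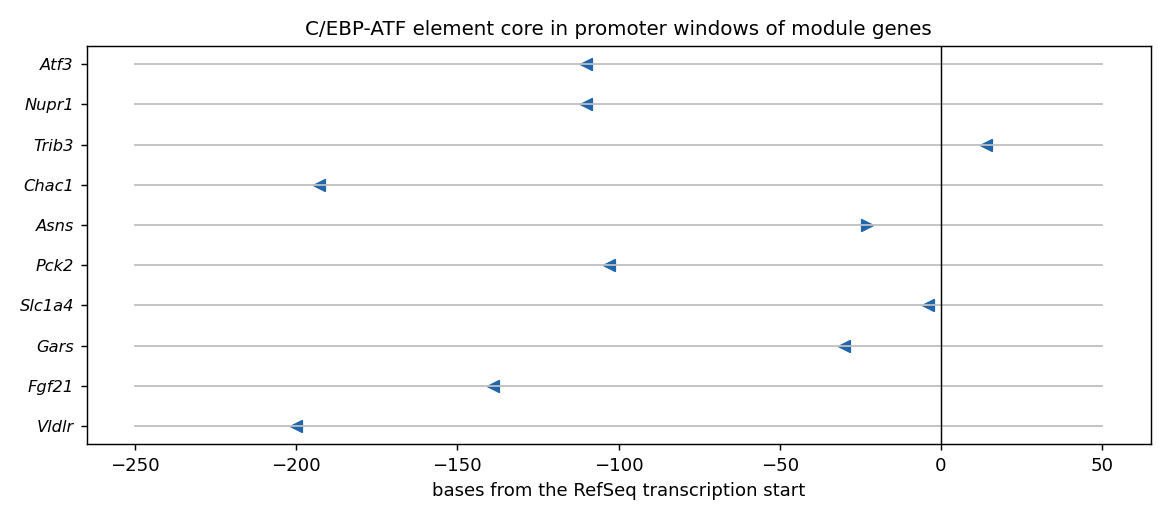
Position of the C/EBP-ATF core in the promoter windows of 10 of the 11 members that hold it; the horizontal axis gives bases from the RefSeq start and each arrowhead marks the first base and strand of a match. Of the matches drawn before the start, that of Asns alone points with the gene, and that of Trib3 is drawn after the start.

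Fgf21 and Pck2 are shown at greater length, because Fgf21 had the widest gap between labels and Pck2 a fall in both lines labelled KO. These are the 250 bases before each start, again with the core in capitals.
Fgf21, chr7:45615491-45615740, minus strand: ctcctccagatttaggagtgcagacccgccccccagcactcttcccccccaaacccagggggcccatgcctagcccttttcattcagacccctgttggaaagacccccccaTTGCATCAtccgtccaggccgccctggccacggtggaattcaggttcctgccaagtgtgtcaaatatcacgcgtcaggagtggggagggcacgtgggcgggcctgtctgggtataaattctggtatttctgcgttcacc
Pck2, chr14:55540016-55540265, plus strand: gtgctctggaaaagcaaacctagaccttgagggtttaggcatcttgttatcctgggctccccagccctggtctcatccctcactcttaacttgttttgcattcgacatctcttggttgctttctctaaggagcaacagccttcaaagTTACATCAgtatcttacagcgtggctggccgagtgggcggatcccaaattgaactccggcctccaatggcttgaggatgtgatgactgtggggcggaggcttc

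The first comparison asked how the module differs between the labels. A gene was called where edgeR's quasi-likelihood test gave an adjusted p under 0.05 (Benjamini-Hochberg, over all 15153 genes) and its log2 fold change was beyond 0.59 in either direction. Of the 33 members tested, 17 were lower and 0 higher in the libraries labelled IRF8 KO, against 8.72% of all genes called lower and 13.7% called higher. The median log2 fold change of the members was −0.85 and that of all genes tested 0.02, and 31 of the 33 members had a negative value. Without the threshold on the fold change, 26 of the 33 had an adjusted p under 0.05, beside 5675 of all 15153 genes. In 24 members every library labelled KO was below every library labelled WT, a pattern that 20.5% of all genes tested showed. Slc38a2 was the only member with every KO library above, a pattern of 22.1% of all genes, and 9 members overlapped. When the 2 libraries of each line were summed, leaving 2 lines against 2, no gene in the table passed the thresholds. In that fit 16 members and 3658 of the 16927 genes it tested had an unadjusted p under 0.05, and the smallest adjusted p among the members was 0.0897.

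**Figure D2:**
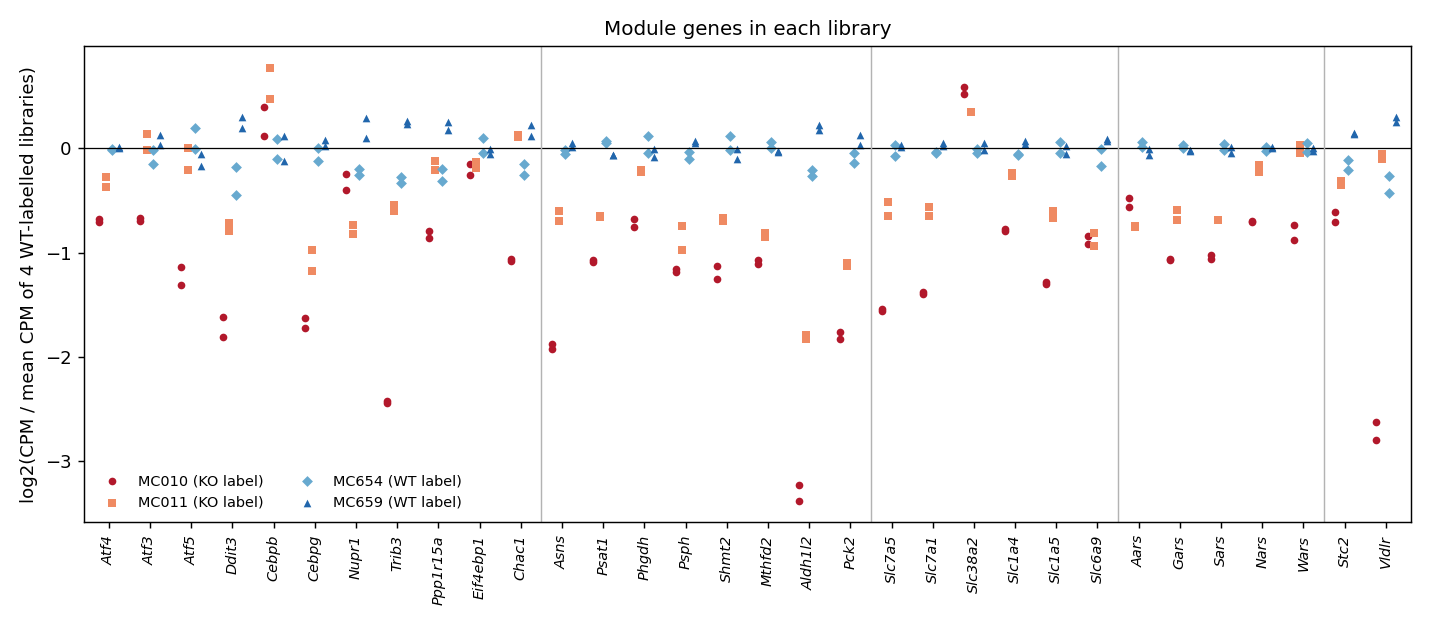
Level of 32 module genes in each of the 8 libraries, as log2 of the CPM over the mean CPM of the 4 libraries labelled WT; points are libraries, colors and shapes are lines, and vertical lines part the roles. The libraries of a line lie close together, MC010 is lowest for most genes, and Slc38a2 and Cebpb lie above 0 in both lines labelled KO. Fgf21, with libraries at 0, and Gdf15 are left out.

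The 4 lines were not alike within a label. MC010 had the lowest mean level of the 4 lines in 28 of the 33 members tested (84.8%) and in 33.1% of all genes tested. In 22 members (66.7%) the line means ran from MC010 through MC011 to both WT lines, an order that 16.8% of all genes showed. In 20 members (60.6%) the same order held for every library, against 9.77% of all genes. The libraries of a line differed by a median of 0.06 on the log2 scale over the tested members other than Fgf21, and by 0.30 at most.

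Against the mean of the 2 WT lines, in a fit with a group for each line, MC010 had 28 members lower and 0 higher, against 17.4% and 19.7% of all genes. MC011 had 17 members lower and 1 higher (Cebpb), against 13.4% and 17.3% of all genes. The median log2 fold change of the members was −1.07 in MC010 and −0.61 in MC011. Both comparisons use the same 4 WT libraries. Compared directly, 15 members were lower and 0 higher in MC010 than in MC011, against 16% and 15.7% of all genes, with a member median of −0.51. MC654 and MC659 differed in 2 members, Fgf21 and Vldlr, both lower in MC654, against 3.71% of all genes called lower and 1.24% called higher.

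**Figure D3:**
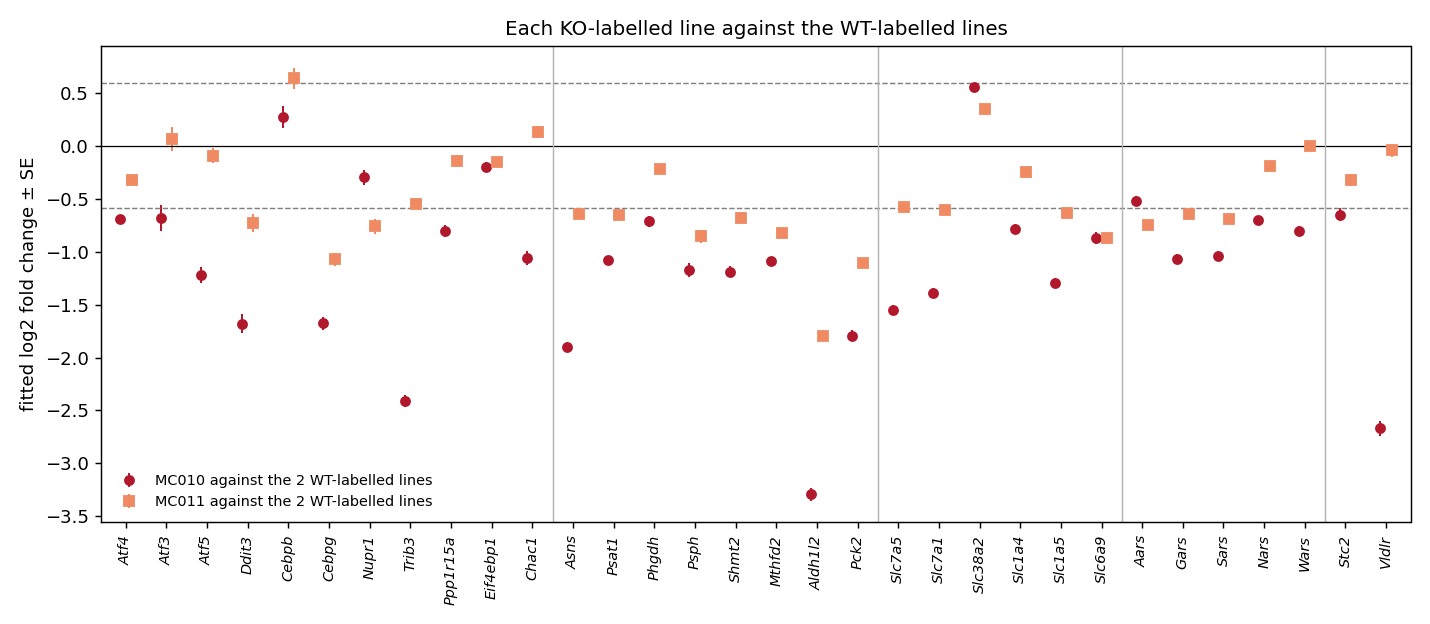
Fitted log2 fold change of MC010 and of MC011 against the mean of both WT lines for 32 module genes; points are estimates, bars are standard errors, and dashed lines mark 0.59 in both directions. MC010 lies below MC011 for most genes, Slc6a9 lies at −0.87 in both lines, and Chac1, Atf3, Wars and Vldlr of MC011 lie near 0. Fgf21 and Gdf15 are left out.

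Among the regulators, 2 of 11 were called lower by label, Ddit3 and Cebpg. Atf4 (chr15:80255184-80257541), the central factor, had 271 and 275 CPM in MC010, 342 and 365 in MC011, 436 and 439.8 in MC654, and 445 and 443 in MC659. The 4 libraries labelled KO were all below the 4 labelled WT. Its log2 fold change by label was −0.49 (SE 0.10, adjusted p = 0.0067), smaller in size than the threshold. In MC010 alone it was −0.69 (SE 0.04) and was called, and in MC011 it was −0.32 (SE 0.04).

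Cebpg, a C/EBP partner of ATF4, was at 36.2 and 38.7 CPM in MC010, 53.0 and 60.8 in MC011, 110.4 and 120.0 in MC654, and 127 and 122 in MC659. No library labelled KO reached the lowest WT library, and the log2 fold change was −1.34 (SE 0.17, adjusted p = 0.00061). It was called in MC010 (−1.68), in MC011 (−1.07) and between the lines labelled KO (−0.61), the last lost to the fold threshold without library 1 of MC010 (−0.55) or library 2 of MC011 (−0.51). Ddit3, which encodes the stress factor CHOP, had 7.27 and 6.35 CPM in MC010, 12.9 and 13.6 in MC011, 19.8 and 16.4 in MC654, and 25.7 and 27.5 in MC659. The groups did not overlap, and the log2 fold change by label was −1.16 (SE 0.29, adjusted p = 0.016). Exons of Ddit3 overlap those of Mars on the opposite strand over 3.97% of their length.

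Trib3, a pseudokinase that feeds back on ATF4, separated MC010 from every other line. It had 8.44 and 8.31 CPM in MC010, 29.9 and 31.1 in MC011, 37.5 and 36.1 in MC654, and 53.3 and 54.6 in MC659. MC010 was lower than MC011 by a log2 difference of −1.86 (SE 0.06, adjusted p = 1.5e-12) and lower than the WT lines by −2.41 (SE 0.06), whereas the label comparison, at −1.22 (SE 0.48), had an adjusted p of 0.078. Atf5, a paralog of ATF4 whose mRNA is under the same translational control, had 45.6 and 40.4 CPM in MC010 and 87.0 to 115 CPM in the other 6 libraries. MC011 was not told from the WT lines for Atf5 (log2 fold change −0.09, SE 0.07, adjusted p = 0.25), and its difference from MC010 was called at −1.12 for MC010 against MC011. Chac1, an enzyme that degrades glutathione, showed the same contrast, with 11.6 and 11.7 CPM in MC010 and 20.5 to 28.6 CPM elsewhere.

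Atf3, a stress-induced repressor, was lower in MC010 at 2.82 and 2.87 CPM than in the other 6 libraries, which ran from 4.11 to 5.03 CPM. Ppp1r15a (GADD34), the inducible subunit of the eIF2 phosphatase, had 23.8 and 22.6 CPM in MC010 and 33.0 to 49.1 CPM in the others. Each of the pair was called lower in MC010 than in MC011, at −0.75 for Atf3 and −0.66 for Ppp1r15a, and neither was called by label (adjusted p = 0.39 and 0.12). Nupr1, a stress-responsive chromatin protein, ran the other way between the lines labelled KO, with 24.1 and 21.7 CPM in MC010 and 16.1 and 17.1 in MC011. It was called lower in MC011 against the WT lines (−0.76, SE 0.07), which had 23.8 to 34.8 CPM.

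Eif4ebp1, an inhibitor of cap-dependent translation, varied least among the regulators. Its libraries ran from 116 to 127 CPM under KO and from 134 to 148 CPM under WT, a log2 fold change of −0.18 (SE 0.05, adjusted p = 0.034) that was short of the fold threshold. Cebpb, a C/EBP factor that responds to stress and inflammation, was the only regulator with a positive value. It had 17.4 and 14.3 CPM in MC010, 22.6 and 18.4 in MC011, and 12.2 to 14.3 CPM in the WT libraries, with a log2 fold change of 0.46 by label (SE 0.14, adjusted p = 0.037). It was called higher in MC011 (0.64, SE 0.10), but not without library 1 of MC011 (0.47), library 2 of MC654 (0.587) or library 2 of MC659 (0.58), which put it under the fold threshold. Tmem189, on the opposite strand, overlaps 20.7% of the Cebpb exons, and whether counting used strand is not given in the sources used here.

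The enzymes held the most calls: 7 of 8 were called lower by label, with a median log2 fold change of −0.98. The remaining enzyme, Phgdh, was called lower in MC010 and fell short of the fold threshold by label and in MC011 (−0.22). Asns (chr6:7675169-7693254), which makes asparagine, had 75.6 and 78.3 CPM in MC010, 177 and 189.7 in MC011, 277 and 285 in MC654, and 297 and 289.6 in MC659. The lines formed 3 separate levels, with both WT lines at the top. The log2 fold change was −1.14 by label (SE 0.32, adjusted p = 0.023), −1.90 in MC010 (SE 0.04) and −0.65 in MC011 (SE 0.04). The call by label was lost without library 2 of MC654 (adjusted p = 0.0523), library 1 of MC659 (0.0559) or library 2 of MC659 (0.0533), and was kept in the other 5 fits that left out a library.

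The serine pathway makes serine from a glycolytic intermediate through Phgdh, Psat1 and Psph in turn. Phgdh had 252 and 239 CPM in MC010, 349.6 and 344 in MC011, and 380.2 to 438 CPM in the WT libraries, a log2 fold change of −0.44 by label (SE 0.14, adjusted p = 0.034) and of −0.72 in MC010. Psat1 had 280.2 and 275 CPM in MC010, 373 and 374 in MC011, 609 and 618 in MC654, and 565 and 562 in MC659. It was lower by label at −0.85 (SE 0.12, adjusted p = 0.0010) and was the step with the most RNA per length after Phgdh. Psph, the last step, ran from 25.6 to 34.8 CPM under KO and from 54.6 to 61.4 CPM under WT, with a log2 fold change of −1.01 (SE 0.11). Its exons overlap those of Cct6a on the opposite strand over 10.4% of their length. Reads of Phgdh could be shared with 3 processed pseudogenes of at least 97.2% identity, which had at most 134 counts in a library against up to 36551 for Phgdh.

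Mitochondrial one-carbon metabolism takes serine to glycine and formate. Shmt2, its first enzyme, had 243 and 222 CPM in MC010, 335 and 328 in MC011, and 494 to 577 CPM in the WT libraries (log2 fold change −0.91, SE 0.14). Mthfd2, the next, had 106 and 108 CPM in MC010, 130.2 and 127 in MC011, and 223 to 238 CPM in WT (−0.95, SE 0.08, adjusted p = 9.0e-05). For both enzymes MC010 was below MC011, and both lines were below every WT library. Aldh1l2 (chr10:83487450-83534140), which oxidizes formyl-tetrahydrofolate in mitochondria, had the largest fold change of the members after Fgf21. It had 11.3 and 12.5 CPM in MC010, 33.8 and 33.1 in MC011, 98.1 and 102 in MC654, and 138 and 133 in MC659. Its log2 fold change was −2.37 by label (SE 0.40, adjusted p = 0.0026), −3.29 in MC010 (SE 0.06) and −1.80 in MC011 (SE 0.05), and D10Wsu102e overlaps 14.1% of its exons on the opposite strand.

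Pck2 (chr14:55540266-55551242), the mitochondrial enzyme that makes phosphoenolpyruvate, had 63.3 and 60.5 CPM in MC010, 100.4 and 98.3 in MC011, 209 and 195 in MC654, and 220.3 and 236 in MC659. Every library labelled KO was below every WT library. The log2 fold change was −1.42 by label (SE 0.18, adjusted p = 0.00079), and MC010 was lower than MC011 by −0.68 (SE 0.05).

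Of the 6 transporters, 4 were called lower by label and 0 higher. Slc7a5 (LAT1), which brings in leucine and other large neutral amino acids, had 129.8 and 127 CPM in MC010, 264 and 239.7 in MC011, 385 and 358 in MC654, and 379 and 385 in MC659. The lines labelled KO were below both WT lines and apart from each other. Its log2 fold change was −0.99 by label (SE 0.25, adjusted p = 0.015), −1.55 in MC010 and −0.58 in MC011, the last just short of the threshold. Slc7a1, a carrier of arginine and lysine, and Slc1a5 (ASCT2), a carrier of glutamine, showed the same order, with log2 fold changes by label of −0.94 (SE 0.20) and −0.93 (SE 0.17). In MC011 the fall of Slc7a1, −0.61, was under the threshold without library 2 of MC011 (−0.56).

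Slc6a9 (GLYT1), a glycine carrier, was at the same level in both lines labelled KO. It had 40.2 and 38.0 CPM in MC010, 40.9 and 37.4 in MC011, 71.5 and 63.8 in MC654, and 76.7 and 75.6 in MC659. The label difference was −0.88 (SE 0.07, adjusted p = 9.0e-05), and MC010 against MC011 gave 0.00 in size (SE 0.07, adjusted p = 0.98), whose sign changed with the scaling. Exons of Ccdc24 overlap 27.8% of the Slc6a9 exons, with at most 100 counts in a library. Slc1a4 (ASCT1), a carrier of serine and alanine, had 61.2 and 62.1 CPM in MC010, 88.5 and 90.5 in MC011 and 102 to 112 CPM in WT, a log2 fold change of −0.49 (SE 0.14) that was not called by label.

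Slc38a2 (SNAT2; chr15:96687392-96699730), the carrier of small neutral amino acids that cells raise when starved of amino acids, went the other way. It had 709 and 741 CPM in MC010, 626 and 627 in MC011, 478 and 492 in MC654, and 512 and 488 in MC659. Every library labelled KO was above every WT library, and the log2 fold change was 0.46 (SE 0.07, adjusted p = 0.0016), short of the fold threshold. It was 0.56 in MC010 (SE 0.04) and 0.35 in MC011 (SE 0.04).

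The tRNA synthetases join each amino acid to its tRNA. Aars (alanine), Gars (glycine) and Sars (serine) were lower by label, at −0.63 (SE 0.08), −0.84 (SE 0.12) and −0.85 (SE 0.10). Gars had 246 and 248 CPM in MC010, 321 and 342 in MC011, 519 and 528 in MC654, and 513 and 509 in MC659. Aars was the enzyme of this group with the reverse order of the lines labelled KO, at 352 and 332 CPM in MC010, 292 and 289.8 in MC011, and 468 to 511 CPM in WT. Exons of Exosc6 on the same strand overlap 14.3% of the Aars exons.

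Nars (asparagine) and Wars (tryptophan) were called in MC010 against the WT lines, at −0.70 (SE 0.04) and −0.81 (SE 0.05), and not by label (adjusted p = 0.036 and 0.22). Nars had 460.1 and 461 CPM in MC010, 639 and 669 in MC011, and 734 to 757 CPM in WT. Wars had 80.3 and 72.8 CPM in MC010, and its levels in MC011, 137 and 130.3 CPM, lay within the WT range of 131 to 139 CPM but for the lower of the pair.

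Fgf21 (chr7:45613886-45615490), a hormone of the fasting and stress response, was nearly absent from the lines labelled KO. It had 5 and 0 counts in MC010, 0 and 1 in MC011, 65 and 42 in MC654, and 227 and 183 in MC659, equal to 0.494 to 0.779 CPM for MC654 and 2.03 to 2.57 CPM for MC659. Every WT library was above every library labelled KO, and 3 of the latter were under the floor of 3 counts. Summed over libraries, 517 counts under WT against 6 under KO gave a ratio of 90.4 (95% exact interval 41.2 to 247), which covers counting error only. The label test gave an adjusted p of 0.0015 from edgeR. MC659 had 3.62 times the level of MC654 (95% exact interval 2.92 to 4.52), a difference called at an adjusted p of 0.0031 by edgeR and not called without library 1 of MC659 (0.0676).

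Gdf15, another secreted stress factor, did not pass the filter, with 0 to 21 counts in the libraries labelled KO and 1 to 17 in those labelled WT, and no difference can be read at this depth. Stc2, a secreted glycoprotein of calcium and stress responses, had 20.8 and 19.4 CPM in MC010, 25.0 and 25.6 in MC011 and 27.5 to 35.2 CPM in WT, with a log2 fold change of −0.49 by label (SE 0.13) and a call in MC010 at −0.65. Vldlr (chr19:27216484-27254231), a lipoprotein receptor, had the widest gap between the lines labelled KO. Its libraries had 7.10 and 6.30 CPM in MC010, 40.7 and 42.4 in MC011, 32.6 and 36.5 in MC654, and 54.2 and 52.1 in MC659. MC011 lay between the WT lines and MC010 far below all others. MC010 was lower than MC011 by −2.62 (SE 0.08, adjusted p = 2.9e-13), the label comparison was not called (−0.86, SE 0.64, adjusted p = 0.33), and MC654 was lower than MC659 by −0.62 (SE 0.07), or −0.54 without library 1 of MC654, which is under the fold threshold.

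Levels can be compared between genes only per length, and were divided by the merged exon length in kilobases. In the libraries labelled WT, Atf4 had the highest level, 187 CPM per kb, followed by Nars at 172, Shmt2 at 171, Gars at 166 and Phgdh at 162 CPM per kb. Psat1 at 138, Asns at 105 and Slc7a5 at 102 CPM per kb came next, whereas the enzymes Aldh1l2 at 15.7 and Psph at 13.5 CPM per kb were in the lower part of the order. Ddit3 had 13.0 and Atf3 2.12 CPM per kb, and Fgf21 at 1.55 and Gdf15 at 0.0506 CPM per kb closed the order. Aldh1l2 fell from 15.7 CPM per kb under WT to 3.02 under KO, whereas Slc38a2 had 55.7 CPM per kb under WT and 76.5 under KO.

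**Figure D4:**
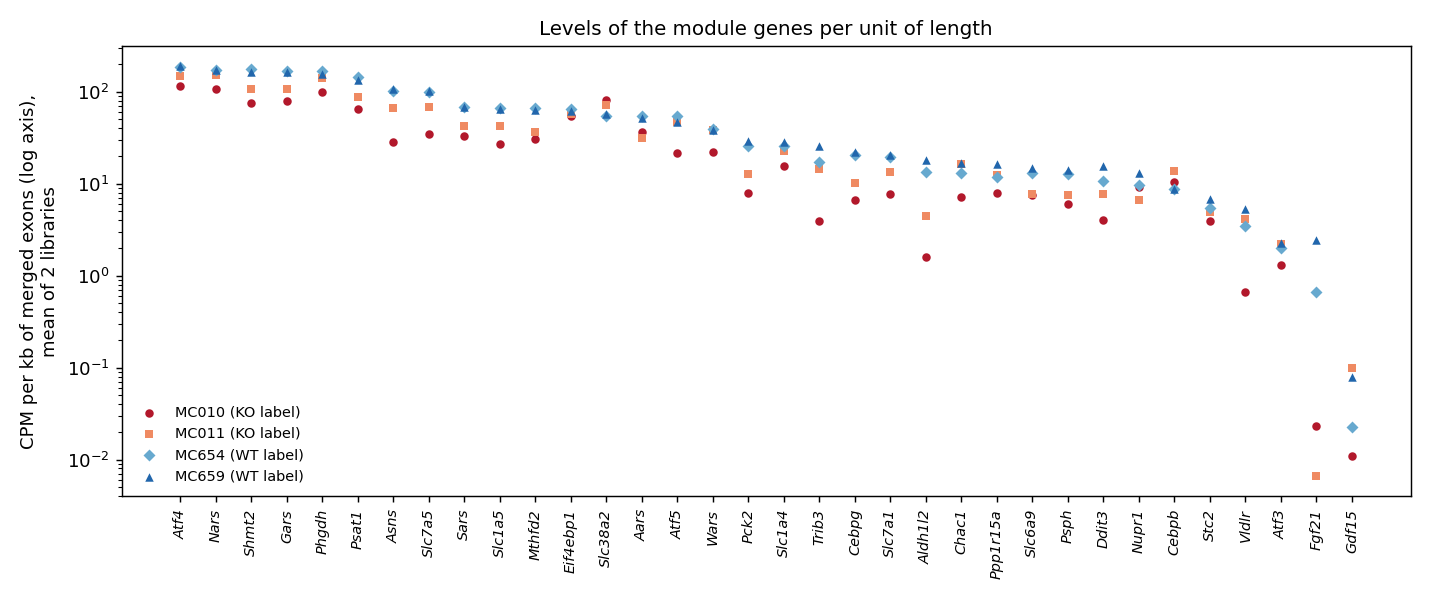
Mean level of the 34 module genes in each line, in CPM per kb of merged exons on a log axis, ordered by the level in the lines labelled WT; each point is the mean of 2 libraries. Atf4 is at the top with 187 CPM per kb under WT and Gdf15 at the bottom with 0.0506 CPM per kb.

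Other genes of the pathway were taken from lists outside the members. These lists were chosen with earlier results of these data known, so their counts are no independent test of the pattern in the members. Of 22 other ATF4 targets tested, 12 were lower and 0 higher by label, beside 8.72% and 13.7% of all genes, with a median log2 fold change of −0.69 beside 0.02 for all genes. By line, 16 were lower and 1 higher in MC010 and 10 lower and 0 higher in MC011 against the WT lines. Of all genes, 17.4% were lower and 19.7% higher in MC010, and 13.4% and 17.3% in MC011. The largest falls were in Cth, which makes cysteine from cystathionine (−2.73, SE 0.22), Gpt2, the mitochondrial alanine aminotransferase (−2.05, SE 0.11), Ddit4 (REDD1), an inhibitor of mTORC1 (−1.87, SE 0.27), the proline enzyme Pycr1 (−1.81, SE 0.33) and the leucine sensor Sesn2 (−1.56, SE 0.14). Cth had 10.3 and 10.5 CPM in MC010, 8.55 and 9.23 in MC011, 46.6 and 48.8 in MC654, and 79.4 and 81.2 in MC659. Aldh18a1, the enzyme before Pycr1 in proline synthesis, was lower at −1.21 (SE 0.13), and 6 of the 7 tRNA synthetases in this list (Cars, Iars, Lars, Mars, Eprs and Yars) were lower, from −0.60 for Iars to −0.91 for Cars, with Tars at −0.22.

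Slc7a11 (xCT), the cystine carrier, split the lines labelled KO. It had 124 and 132 CPM in MC010, 22.6 and 20.2 in MC011, 29.5 and 29.4 in MC654, and 35.2 and 35.6 in MC659. It was higher in MC010 against the WT lines (1.99, SE 0.05) and lower in MC011 at −0.59 (SE 0.06, adjusted p = 1.7e-07), and the direct difference was 2.58 (SE 0.06) for MC010 against MC011. By label its value was 1.20 (SE 0.62, adjusted p = 0.17).

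The kinases of eIF2, its exchange factor eIF2B and its phosphatase stand before ATF4. They were examined in a list that also holds related genes, Oma1, Impact, Gcn1l1, Nck1 and Dnajc3 among them. Of its 17 genes tested, 1 was higher and 0 were lower by label, beside 13.7% and 8.72% of all genes, with a median of −0.03. By line, 1 was higher and 1 lower in MC010, 2 were higher and 1 lower in MC011, and 1 was higher and 3 lower in MC010 against MC011. All genes had 19.7% higher and 17.4% lower in MC010, 17.3% and 13.4% in MC011, and 15.7% and 16% in MC010 against MC011. The counts of the list are close to these shares or under them. The gene called by label was Oma1, a mitochondrial protease that relays mitochondrial stress, with 16.9 to 19.6 CPM under KO and 9.48 to 11.3 CPM under WT (log2 fold change 0.86, SE 0.09). Eif2ak3 (PERK) had 21.8 to 24.5 CPM and 22.1 to 23.0 CPM, and Eif2ak4 (GCN2), the sensor of uncharged tRNA, was at −0.16 (SE 0.09, adjusted p = 0.22). Eif2ak2 (PKR), the sensor of double-stranded RNA, was called lower in MC011 at −1.30 (SE 0.05).

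Of 19 genes from the other arms of the unfolded protein response, 3 were higher and 0 lower by label, a share of higher calls close to the 13.7% of all genes (8.72% were lower), with a median of 0.34. By line, 3 were higher and 2 lower in MC010, and 6 higher and 2 lower in MC011. The shares of all genes were 19.7% higher and 17.4% lower in MC010, and 17.3% and 13.4% in MC011. Neither count of MC010 exceeded its share. The lower genes included Herpud1, of protein degradation at the endoplasmic reticulum, at −1.19 in MC010 and the sensor Atf6 at −0.89 in MC011. Sdf2l1 (1.11, SE 0.09), Creld2 (0.81, SE 0.07) and Pdia4 (0.66, SE 0.05), all proteins of the same compartment, were the called genes. Sdf2l1 had 20.6 to 25.8 CPM under KO and 10.3 to 11.1 CPM under WT. Hspa5 (BiP), the main chaperone of that compartment, was at 0.48 (SE 0.10, adjusted p = 0.0083), and Xbp1 at 0.00 (SE 0.08). Of 8 other cytosolic tRNA synthetases none was called, with a median of −0.16, though 4 had an adjusted p under 0.05. Of 11 other serine, glycine and folate genes, 1 was higher and 0 lower, Slc25a32, the mitochondrial folate carrier (0.60, SE 0.07), with a median of −0.09.

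**Figure D5:**
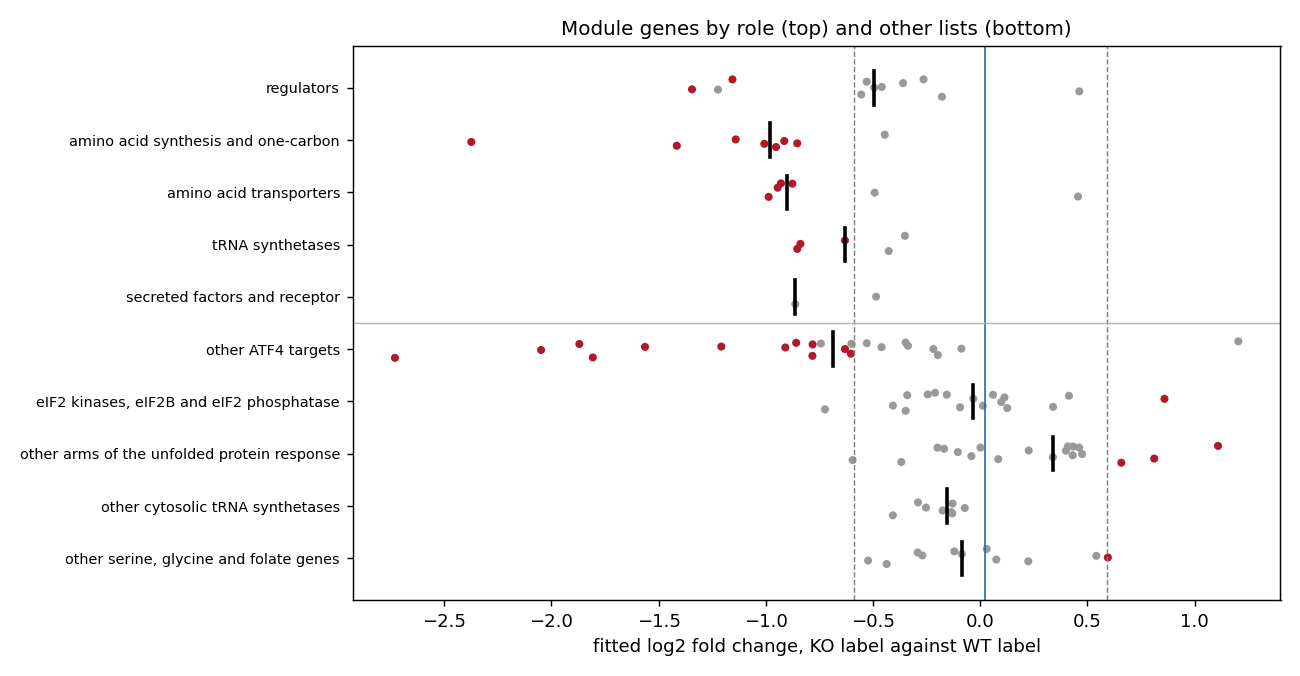
Fitted log2 fold change of the KO label against the WT label for each tested gene, by role for the members (top) and for the other lists (bottom); red points passed both thresholds, black bars are list medians, dashed lines mark 0.59 in both directions and the blue line is the median of all genes, 0.02. Fgf21 is not drawn but counts in the median of its role. Medians of the members' roles lie between −0.49 and −0.98 and that of the other unfolded protein response genes at 0.34.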

How the data were processed

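RNA from 4 mouse fibrosarcoma lines was sequenced from stranded mRNA libraries, 2 per line. Per the submitters' processing notes, reads were aligned to mm10 (GRCm38.p6) with STAR 2.7.3a, counted per gene with HTSeq 0.11.2 and compared with DESeq2; whether counting used strand is not given in the sources used here. The authors deposited a raw count per gene and library, used here, and a signal (counts over a size factor for the library, checked but not used). Columns of the authors' own comparison (mean, log2 fold change, standard error, statistic, p-value and adjusted p-value) were not used. The table holds genes with a sum of 20 or more counts.

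Counts were tested with edgeR 4.0.16 in R 4.3.3 (filterByExpr by label, TMM, robust quasi-likelihood test, Benjamini-Hochberg adjustment), once by label and once with a group per line. Calls needed an adjusted p under 0.05 and a log2 fold change beyond 0.59. Standard errors were derived from the fold change and the F statistic. DESeq2 1.42.0 and limma 3.58.1 served for alternatives, and the fits were tested on simulated data. For the label fit the simulated counts held no difference between lines of a label, unlike these data. That check therefore cannot vouch for the p-values by label. CPM used TMM-scaled library sizes; 3 counts, taken as the floor, were 0.0262 to 0.0408 CPM, and floors and intervals cover counting error only. Sequences are from RefSeq promoter windows of GRCm38.p6, with gene models from GENCODE; an item is not reported here. All members are named; of the other lists, the rule allowed genes past the thresholds in a contrast and those with the largest changes, of which some are named, and Xbp1, Eif2ak3, Eif2ak4 and Tars were named after their values were seen. The members and lists were chosen with earlier results of these data known.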

Additional observations from a re-analysis of the deposited data

Results flagged for a closer look

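MC010 and MC011, both labelled IRF8 KO, differed in 15 members at the thresholds of the report, by a direct test of MC010 against MC011 (edgeR, one group per line), and all 15 were lower in MC010. Of all genes, 16% were lower and 15.7% higher in MC010 by that test. The log2 differences among the regulators were −0.75 for Atf3, −1.12 for Atf5, −0.95 for Ddit3, −0.61 for Cebpg, −1.86 for Trib3, −0.66 for Ppp1r15a and −1.19 for Chac1. Among the enzymes they were −1.25 for Asns, −1.50 for Aldh1l2 and −0.68 for Pck2. The transporters Slc7a5, Slc7a1 and Slc1a5 differed by −0.97, −0.78 and −0.66, Wars by −0.80 and Vldlr by −2.62. The test rests on the spread between the 2 libraries of a line. In 68 groups of 4 libraries, a member in a label each, no library stood apart from the other 3 by Dixon's ratio at its 95% critical value for 4. Each group holds 2 libraries of each of 2 lines, so where the lines differ the values form pairs and no single library can stand apart. The rate of 1 group in 20 for independent values does not hold here, and the check cannot tell whether a library is off.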

How the results depend on the processing

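The 17 members called by label became 0 when the libraries of each line were summed, 26 (2 higher, 24 lower) without the threshold on the fold change and 28 without line MC011. They were 18 with DESeq2, 19 without line MC010, 14 without MC654 and 12 without MC659, and 17 with median-of-ratios size factors, with upper-quartile scaling, with no filter on low counts and with limma-voom and a random block per line (consensus correlation 0.83). The calls over all genes moved in the same order where a line was left out. They were 3159 higher and 2668 lower of 16072 without MC011, and 2679 and 2056 of 16095 without MC010. Without MC654 they were 1222 and 857 of 16429, and without MC659 1185 and 699 of 16295. The main fit had 2083 and 1321 of 15153, and DESeq2 2319 and 1520. Without the fold threshold, MC010 against MC011 gave 30 members in place of 15, MC011 against the WT lines 28 in place of 18, and MC654 against MC659 10 in place of 2. Of all 15153 genes, 9550, 9901 and 2198 passed in these comparisons without that threshold, and 5675 did by label. Leaving out single libraries, the label count ran from 16 to 19, that of MC010 against MC011 from 14 to 16, of MC010 against the WT lines from 28 to 29, of MC011 from 17 to 19, and MC654 against MC659 gave 2 throughout. Those 2 were not always the same members. Between MC654 and MC659, Fgf21 and Vldlr were each called in 7 of the 8 fits. Ddit3 was called in 2 of the 8, and ran from −0.70 to −0.43.

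Without MC659, Ddit3 lost its call by label (adjusted p = 0.17), and without MC654 or MC659 in turn so did Asns (0.12 and 0.15), Slc7a5 (0.10 and 0.12), Slc7a1 (0.065 and 0.083) and Slc1a5 (0.051 and 0.052), all from edgeR. Without MC011, Aars was at −0.53, under the fold threshold. By limma-voom with that block, Fgf21 had an adjusted p of 0.053. Signs turned for Atf3 (0.042) and Chac1 (0.096) by label without MC010, and for Slc6a9 in MC010 against MC011 with DESeq2 (0.0027), median-of-ratios size factors (0.0028), no filter (0.0016) and upper-quartile scaling (0.00745). With a library left out, signs turned in results that were not called. In MC011 against the WT lines, Atf3 ran from −0.014 to 0.13, Atf5 from −0.21 to 0.0073 and Wars from −0.049 to 0.034. In MC010 against MC011, Eif4ebp1 ran from −0.096 to 0.027, Fgf21 from −2.29 to 4.32 and Slc6a9 from −0.067 to 0.072. In MC654 against MC659, Cebpb ran from −0.12 to 0.11, Eif4ebp1 from −0.021 to 0.13, Nars from −0.036 to 0.0099, Sars from −0.0026 to 0.058, Slc1a5 from −0.028 to 0.079, Slc7a5 from −0.093 to 0.013 and Wars from −0.021 to 0.068. The cause of these changes was not tested.

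The library numbers of the labels did not pair the samples, since deviations of same-numbered libraries correlated between −0.12 and 0.19. With the replicate block, 17 members were called by label, 15 for MC010 against MC011, 28 and 18 for MC010 and MC011 against the WT lines and 2 for MC654 against MC659, the same counts as without it. Depth limits Gdf15, and Fgf21 in the lines labelled KO, to a few counts per library.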
